A study of Homo sapiens with 12 samples.

Results

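The 9 cystatin genes CST1, CST2, CST3, CST4, CST5, CST6, CST7, CSTA and CSTB were followed across 12 bead arrays of the human cell line MDA-MB-231, which was derived from a triple-negative breast cancer. They were picked by gene name after CST1 had been seen to have the largest rise with EZH2 siRNA, so values of siEZH2 against siNC are given for them as a description, without a test. The 9 genes had 10 of the 22184 probes, of which 7 probes for 7 genes passed the detection filter, a detection p under 0.05 on at least 3 arrays. Total RNA came from cells transfected with an siRNA against EZH2 (siEZH2), against RELA (siRelA), against RELB (siRelB) or with a negative control siRNA (siNC). Each siRNA was measured after 4 h with 10 ng/ml TNFalpha (TNF) and without it. The siEZH2 and siNC groups without TNF had 3 arrays each, and each of the other 6 groups had 1 array. Whether replicates were separate cultures is not said in the labels, and the p-values therefore cover only a spread among arrays that may be technical. All cells were of 1 line and all had received an siRNA, and an untransfected group was not analysed here.

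Cystatins are small proteins that bind tightly and reversibly in the active site of papain-like cysteine proteases, above all the lysosomal cathepsins. The stefins CSTA and CSTB stay inside the cell, while CST1 to CST7 are made with a signal peptide and are secreted or enter the endolysosomal path. CST3 (cystatin C) is made by most tissues, CST1, CST2 and CST4 (cystatins SN, SA and S) are best known from saliva and tears, CST6 (cystatin E/M) is described as silenced in breast cancers, and CST7 (cystatin F) is best known from blood cells. EZH2 is the histone methyltransferase of Polycomb repressive complex 2, which silences genes, and RELA and RELB are transcription factor subunits of NF-kB, the pathway that TNF activates.

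The targeted genes were measured first. EZH2 signal was 148.7 with siEZH2 and TNF and 140.4, 128.2 and 140.7 with siEZH2 alone, against 616.1 with siNC and TNF and 600.5, 485.5 and 619.2 with siNC alone. RELA was not detected on the siRelA arrays, where it was at least 3.54-fold lower than with siNC (limma adjusted p = 0.00164). RELB fell by 2.48 ± 0.23 (SE) on the log2 scale with siRelB (limma adjusted p = 0.000597), and it also fell by 2.17 ± 0.23 with siRelA (adjusted p = 0.00130), so the siRelA arrays were low in both NF-kB genes. The share of probes detected on an array was 55.6% to 58.2%, over a background (the median signal of undetected probes) of 58.1 to 101.5 that was highest on the replicate 2 arrays, at 99.7 with siEZH2 and 101.5 with siNC. Signals of the 7 detected cystatins were read from 18 to 60 beads, with an SE over beads of 1.87% to 6.79% of the signal. All 5 markers of a basal mesenchymal line were detected on every array, and CAV1 among them fell by 0.73 ± 0.18 with siEZH2 (adjusted p = 0.0384). Of 6 luminal or epithelial markers, ESR1, PGR and FOXA1 were detected on no array, and the summed signal of the 6 was 541.6 to 733.5 with siEZH2, 729.9 to 732.4 with siRelA, 689.5 to 757.3 with siRelB and 786.5 to 959.3 with siNC. EPCAM, detected on all arrays, fell by 1.41 ± 0.25 with siEZH2 (adjusted p = 0.0119), and the part of these changes in the results below was not tested. Among blood cell markers, PTPRC was detected on some arrays and CD3E and HBB on none. In such bulk RNA, more cells with a transcript and more transcript per cell cannot be told apart.

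Most genes of secreted cystatins lie on chromosome 20. In the RefSeq gene order of GRCh38.p14, which was used for order only, CST9, CST3, CST4, CST1, CST2 and CST5 follow each other with no other protein-coding gene between them. CST7 lies further along the same chromosome, and CST6, CSTA and CSTB lie on chromosomes 11, 3 and 21. CST3, CST4, CST1 and CST2 had higher signals with siEZH2 than with siNC, while CST9 and CST5 at the flanks were detected on no array. A promoter sequence was at hand for 2 of the 9 genes, CST3 inside the stretch of higher signals and CST5 at its edge. The 250 bases before each start site are printed 5′ to 3′ on the gene's minus strand, from RefSeq on GRCh38.p14, with CpG pairs in capitals because CpG-dense promoters are the usual sites of Polycomb repressive complex 2. The CST3 stretch is chr20:23637956-23638205 and the CST5 stretch is chr20:23879749-23879998.
CST3: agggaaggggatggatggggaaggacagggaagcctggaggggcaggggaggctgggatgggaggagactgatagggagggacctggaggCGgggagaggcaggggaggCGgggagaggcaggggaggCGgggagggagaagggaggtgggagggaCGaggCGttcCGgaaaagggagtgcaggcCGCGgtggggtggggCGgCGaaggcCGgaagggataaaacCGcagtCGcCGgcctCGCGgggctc
CST5: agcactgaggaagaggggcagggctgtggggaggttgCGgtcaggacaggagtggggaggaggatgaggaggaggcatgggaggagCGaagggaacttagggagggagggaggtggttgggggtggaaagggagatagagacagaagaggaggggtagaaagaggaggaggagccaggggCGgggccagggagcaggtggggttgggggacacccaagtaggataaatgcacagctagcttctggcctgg
The CST3 stretch held 16 CpG pairs, more than 59.0% of the 35116 promoters of the same length, and the CST5 stretch held 3, more than 22.9% of them, against a median of 11. Their GC content was 70.8% for CST3 and 62.4% for CST5, against a median of 58%. Neither held the letters TATAAA on either strand, which 10.7% of all promoters hold, and both held GGG followed after 5 bases by CC, a loose form of the NF-kB motif searched on both strands, which 54.4% of all promoters hold. Such matches describe the letters only.

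CST1, which encodes cystatin SN, had a signal of 18064.8 with siEZH2 and TNF and of 17287.2, 4722.4 and 17335.9 with siEZH2 alone in replicates 1, 2 and 3. It had 476.7 with siNC and TNF and 415.2, 204.3 and 428.2 with siNC alone. Every siEZH2 array lay above every siNC array, and replicate 2 gave the lowest signal in both groups. After normalization CST1 was 47.3-fold higher with siEZH2 than with siNC in cells without TNF (log2 change 5.57 ± 0.74, SE, n = 3 each), first of the 12275 genes when ranked by rise, which is how it was chosen. Although levels in replicate 2 were low, the ratio of normalized values within a replicate varied little. It was 49.2 in replicate 1, 45.3 in replicate 2 and 47.6 in replicate 3. The siNC signal of replicate 2 was 2.01 times background, so its ratio depends on the background correction. The authors' log2 values, which carry no such correction, were 3.81 with siEZH2 and -1.55 with siNC in replicate 1. They were 1.55 and -3.07 in replicate 2 and 3.86 and -1.48 in replicate 3, with the smallest difference in replicate 2. The single pair of arrays with TNF gave 43.2.

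CST2, CST4 and CST3, the neighbours of CST1, were higher with siEZH2 by smaller folds. CST2 (cystatin SA) had signals of 430.2 with siEZH2 and TNF and 489.4, 275.0 and 451.4 with siEZH2 alone, against 142.9 with siNC and TNF and 134.0, 152.4 and 126.3 with siNC alone. CST4 (cystatin S) had 399.8 with siEZH2 and TNF and 428.7, 252.6 and 475.6 with siEZH2 alone, against 172.7 with siNC and TNF and 141.8, 148.9 and 135.4 with siNC alone. In both genes the siEZH2 and siNC arrays did not overlap, and the siEZH2 array of replicate 2 was the lowest of its group. Within replicates 1, 2 and 3 the siEZH2 to siNC ratios were 5.29, 2.67 and 5.39 for CST2 and 4.20, 2.44 and 5.10 for CST4, so replicate 2 gave the smallest ratio of both. The mean log2 changes were 2.08 ± 0.42 (4.24-fold) for CST2 and 1.90 ± 0.46 (3.74-fold) for CST4. CST1, CST2 and CST4 are near-identical genes, and whether each probe binds only its own transcript was not tested, so the transcripts behind these 3 signals cannot be told apart with certainty. The correlation of normalized log2 values of CST1 with CST2 was 0.87 over all 12 arrays and -0.26 over the 8 arrays without siEZH2, that of CST1 with CST4 was 0.95 and 0.79, and that of CST2 with CST4 was 0.95 and 0.32.

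CST3 (cystatin C), the broadly expressed secreted inhibitor, was bright on every array, at 62.5 times background or more. Its signals were 18329.7 with siEZH2 and TNF and 18672.0, 18297.4 and 19824.1 with siEZH2 alone, against 6977.2 with siNC and TNF and 7343.2, 6340.3 and 7199.3 with siNC alone. The arrays of each siRNA lay close together and the groups were far apart. The log2 change was 1.58 ± 0.19 (2.98-fold), with ratios within replicates of 2.70, 3.22 and 3.05. CSTB, the stefin of the cytosol and nucleus, was also higher and lies on chromosome 21. It had 6668.4 with siEZH2 and TNF and 6860.4, 7654.9 and 6907.4 with siEZH2 alone, against 2790.0 with siNC and TNF and 3283.7, 3357.7 and 3037.3 with siNC alone. The log2 change of CSTB was 1.23 ± 0.16 (2.34-fold), with ratios within replicates of 2.09, 2.53 and 2.43. Among the siEZH2 arrays replicate 2 was the lowest for CST3 as well, by a small margin, and the highest for CSTB.

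CST7 and CST6 did not join these genes. CST7 (cystatin F), an inhibitor best known from immune cells, had 140.8 with siEZH2 and TNF and 166.5, 148.1 and 135.8 with siEZH2 alone, against 193.5 with siNC and TNF and 237.9, 233.5 and 195.6 with siNC alone. Its signal was lower on every siEZH2 array than on any siNC array, although the normalized values of the 3 replicates of each overlapped, with a log2 change of -0.90 ± 0.31 and ratios within replicates of 0.603, 0.503 and 0.509. CST6 (cystatin E/M) had 109.1 with siEZH2 and TNF and 117.5, 158.3 and 115.3 with siEZH2 alone, against 107.8 with siNC and TNF and 109.7, 147.2 and 101.3 with siNC alone. These ranges overlapped, the log2 change was 0.18 ± 0.18, and on no array was CST6 more than 1.84 times background. A further CST6 probe was detected on no array (detection p 0.353 to 0.868). CST5 (cystatin D) and the keratinocyte stefin CSTA were detected on no array either, with detection p of 0.0714 to 0.327 and 0.472 to 0.927. CST5 stood at 1.02 to 1.27 times background and CSTA at 0.821 to 0.964 times background. Of the 7 genes tested, 5 had an adjusted p under 0.05 as higher with siEZH2, where 14.8% of all genes passed in either direction and 7.89% as higher, and nothing is read from this count, because that comparison chose the genes.

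**Figure D1:**
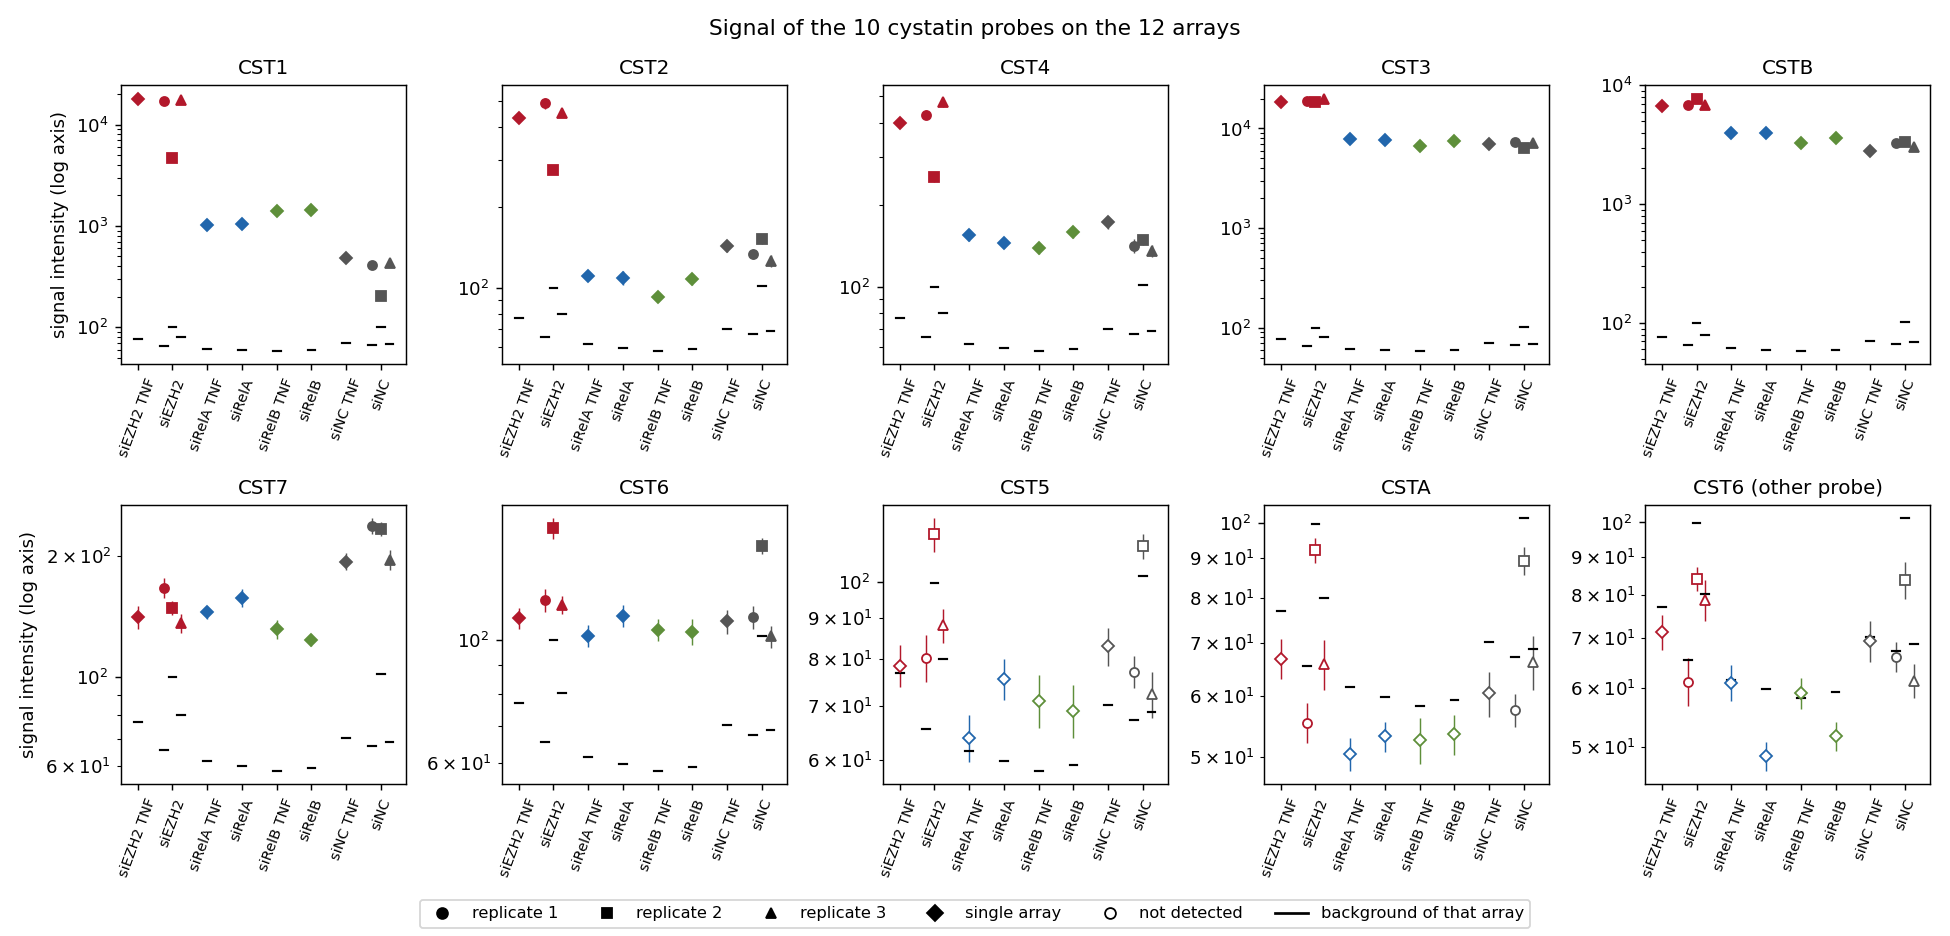
Signal intensity (log axis, its own scale in each panel) of the 10 cystatin probes on the 12 arrays, by siRNA and TNF. Points are arrays, error bars are the SE over beads, open points are not detected and black dashes are the background of the same array. CST1 lies at 4722.4 or above on the 4 siEZH2 arrays, between 1024.6 and 1423.2 on the siRelA and siRelB arrays and at 476.7 or below on the siNC arrays.

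**Figure D2:**
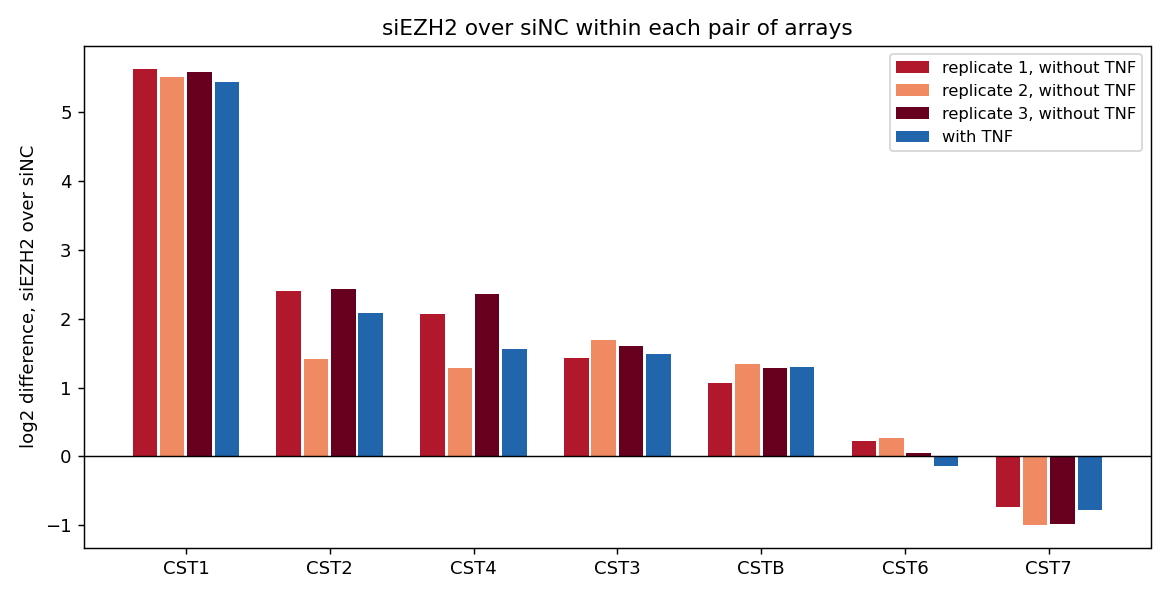
Log2 difference of normalized intensity, siEZH2 over siNC, within each of the 4 pairs of arrays for the 7 detected cystatins. Bars are single pairs and have no error bar. CST1 lies between 5.43 and 5.62 in all pairs, CST2 and CST4 are lower in replicate 2 than in replicates 1 and 3, and CST7 is below 0 in every pair.

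The siRelA and siRelB arrays were not used to pick CST1 over other genes, but the siNC arrays without TNF were. The comparisons with siNC address whether the cystatins depend on NF-kB subunits. CST1 had intermediate signals with siRelA and siRelB. It was 1024.6 with siRelA and TNF and 1039.5 with siRelA alone, and 1394.4 with siRelB and TNF and 1423.2 with siRelB alone, against 476.7 with siNC and TNF and 415.2, 204.3 and 428.2 with siNC alone. Neither siRNA overlapped siNC, and both lay far below siEZH2. In the additive fit of siRNA and TNF over the 12 arrays (2 arrays against 4), CST1 differed by 1.65 ± 0.68 (SE, 3.13-fold) with siRelA (limma adjusted p = 0.348) and by 2.10 ± 0.68 (4.30-fold) with siRelB (adjusted p = 0.25), neither past the threshold of 0.05. Both comparisons, and that of siEZH2, share the siNC arrays. A gene picked for a large rise over siNC tends to low siNC values, which favours a rise of CST1 in both comparisons. The p-values of CST1 with siRelA and siRelB do not allow for this, here and in the fits below. Of the 7 cystatins, 0 passed with siRelA, where 2% of all genes did, and 0 with siRelB, where 1.16% did. An unadjusted p under 0.05 was reached by 2 of them with siRelA, CST1 and CSTB, and by 2 with siRelB, CST1 and CST7.

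Replicate numbers were taken to pair the siEZH2 and siNC arrays, which was not tested. The block had a level each for replicates 1 and 2 and a shared level for the other 8 arrays, replicate 3 among them. Those 8 arrays were also centred together in the authors' values, which the labels do not explain. With this replicate block, CST1 differed by 1.24 ± 0.09 (2.37-fold, adjusted p = 5.69e-05) with siRelA and by 1.70 ± 0.09 (3.25-fold, adjusted p = 3.08e-05) with siRelB. Without both replicate 2 arrays, and with no block, the values were 1.24 (adjusted p = 5.38e-05) with siRelA and 1.70 (adjusted p = 2.29e-05) with siRelB. In the blocked fit 14.8% of all genes passed with siRelA and 12.8% with siRelB, so the members' counts stand against a much larger background. CST7 then passed too, at -0.45 ± 0.12 with siRelA (adjusted p = 0.0356) and -0.79 ± 0.12 with siRelB (adjusted p = 0.00354), while without the block it stood at -0.48 ± 0.28 and -0.83 ± 0.28 (adjusted p = 0.585 and 0.267). Its signals were 144.7 with siRelA and TNF, 157.1 with siRelA alone, 131.3 with siRelB and TNF and 123.5 with siRelB alone, all below the lowest siNC array at 193.5. CSTB differed by 0.36 ± 0.10 with siRelA in the blocked fit (adjusted p = 0.0456) and by 0.32 ± 0.13 without the block (adjusted p = 0.327). Because siRelA and siRelB arrays carry no replicate number, they lie in the shared level. The blocked fit therefore sets them against siNC in that level, where the siNC arrays are replicate 3 and the array with TNF. It fits 1 siEZH2 effect over all levels, so the siEZH2 arrays and the arrays of replicates 1 and 2 also enter the siNC estimate. The siEZH2 comparison that chose the genes thus enters the blocked siRelA and siRelB values as well.

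The chromosome 20 neighbours of CST1 did not pass the test in either fit, though CST2 passed with siRelB under some alternatives given at the end. CST2 had 110.7 with siRelA and TNF, 108.9 with siRelA alone, 92.9 with siRelB and TNF and 107.6 with siRelB alone, each below the lowest siNC signal of 126.3. After normalization its values overlapped those of siNC, and it differed by -0.31 (95% interval -1.16 to 0.54) with siRelA and by -0.50 (-1.35 to 0.35) with siRelB. With the replicate block these were -0.49 (-0.95 to -0.03, adjusted p = 0.145) and -0.68 (-1.14 to -0.22, adjusted p = 0.0593), intervals that leave out 0 before adjustment over all genes. CST4 differed by 0.21 (-0.75 to 1.16) with siRelA and by 0.20 (-0.75 to 1.16) with siRelB, on signals of 155.3 with siRelA and TNF, 144.6 with siRelA alone, 138.7 with siRelB and TNF and 158.7 with siRelB alone. Without the block the CST2 and CST4 intervals are wide, and they do not show that these genes were at the same level in all groups. CST3 was held more narrowly, at 0.11 (-0.23 to 0.45) with siRelA and 0.02 (-0.32 to 0.36) with siRelB. Its signals were 7858.1 with siRelA and TNF, 7601.8 with siRelA alone, 6611.1 with siRelB and TNF and 7531.4 with siRelB alone. The difference between CST1 and its neighbours within an array was not tested.

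No cystatin passed the test for 4 h of TNF. Across siRNAs (4 arrays with TNF against 8 without), limma called 0 genes of 12275 (0%), with 219 at an unadjusted p under 0.05 and no cystatin among them. CST1 differed by 0.53 (95% interval -0.55 to 1.61) and by 0.13 (-0.03 to 0.28) with the replicate block, CST4 by 0.33 (-0.35 to 1.02), and CST2, CST3, CST6, CST7 and CSTB by -0.07 to 0.18. The 28 differences of 7 cystatins within the 4 siRNAs, each resting on 1 TNF array, ran from -0.25 to 0.87, and 18 were above 0. The largest, 0.87 for CST1 with siNC, set the TNF array against a mean that held the low replicate 2. Whether the TNF response differed between siEZH2 and siNC was addressed by an interaction, which called 0 genes (0%), with 23 at an unadjusted p under 0.05 and no cystatin among those 23. The interaction of CST1 was -0.13 ± 1.47 and -0.13 ± 0.22 with the block, and over the 7 cystatins it ran from -0.35 to 0.12. For the cystatins these are a description only, since the interaction contains the change without TNF that chose them, and a gene chosen for a large such change tends to a negative interaction. The siNC array with TNF, on which the interaction and the siNC response to TNF rest, averaged 23.6 beads for each probe, against 40.8 to 43.1 on the other 11.

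**Figure D3:**
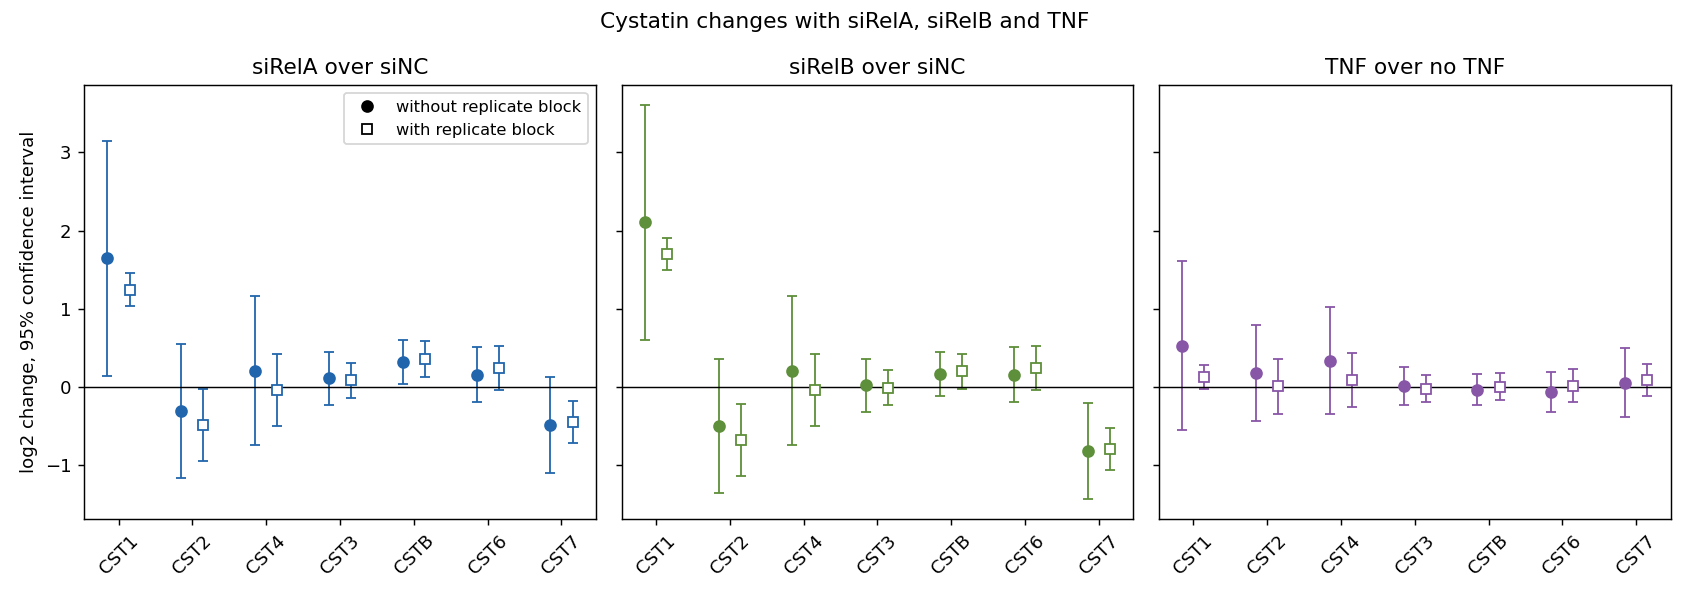
Log2 change of the 7 detected cystatins with siRelA and siRelB over siNC and with TNF over no TNF. Points are limma estimates and bars are 95% confidence intervals, filled without and open with the replicate block. CST1 is above 0 with siRelA and siRelB in both fits, and its SE is 0.09 with the block and 0.68 without it.

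The proteases that cystatins inhibit were measured on the same arrays, in a list of 11 cysteine cathepsins and legumain (LGMN), an asparaginyl protease that CST3, CST6 and CST7 also bind. With siEZH2 in cells without TNF, 4 of the 12 rose and 1 fell, while 14.8% of all genes passed, 7.89% as higher and 6.92% as lower. The median log2 change of the 12 was 0.99, against -0.01 for all genes tested. CTSB, a lysosomal endopeptidase and exopeptidase, rose by 2.93 ± 0.22 (7.63-fold, adjusted p = 0.00238). Its signals were 1248.9 with siEZH2 and TNF and 1377.3, 1392.1 and 1314.3 with siEZH2 alone, against 247.7 with siNC and TNF and 256.9, 256.3 and 214.6 with siNC alone. CTSL, a lysosomal endopeptidase, rose by 2.70 ± 0.37 (6.52-fold, adjusted p = 0.00619), with 3038.2 with siEZH2 and TNF and 4405.2, 6809.6 and 3316.0 with siEZH2 alone, against 639.8 with siNC and TNF and 563.8, 1561.3 and 627.9 with siNC alone. In CTSL replicate 2 was the highest of both groups, the opposite of CST1. A further CTSL probe changed by 2.03.

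CTSF, a cathepsin with a cystatin-like stretch in its own proregion, rose by 1.71 ± 0.17 (3.27-fold, adjusted p = 0.00337), at 202.5 with siEZH2 and TNF and 234.2, 325.2 and 248.6 with siEZH2 alone, against 111.0 with siNC and TNF and 115.6, 159.9 and 101.6 with siNC alone. All 4 of these genes were higher on each siEZH2 array than on any siNC array. LGMN rose by 1.42 ± 0.17 (2.67-fold, adjusted p = 0.00466), at 2372.7 with siEZH2 and TNF and 2733.4, 3457.1 and 2437.4 with siEZH2 alone, against 1053.7 with siNC and TNF and 1040.7, 1410.8 and 1109.1 with siNC alone. CTSW, a cathepsin known from cytotoxic lymphocytes, fell. It was detected on none of the siEZH2 arrays and on all siNC arrays, at least 1.96-fold lower with siEZH2 (adjusted p = 0.00430). CTSC, CTSH, CTSK, CTSO, CTSS, CTSV and CTSZ did not pass. With the replicate block CTSH, CTSO and CTSZ also passed as higher and CTSV as lower, 9 of 12 in all, where 43.6% of all genes passed. Among cathepsins of other protease classes, which cystatins do not inhibit, the serine carboxypeptidase CTSA rose by 1.53 ± 0.21 (adjusted p = 0.00590), while CTSD (0.57 ± 0.30, adjusted p = 0.287) and CTSE (-0.10 ± 0.25) did not pass and CTSG was not detected. CTSD passed as higher with the block (0.57 ± 0.17, adjusted p = 0.0341). The first processing set alone, 2 arrays against 2, gave 0 calls among the 12 genes of the list and 0 over all genes, so nothing is read from it.

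CTSS and CTSW, 2 of the 12, fell with siRelA, where 1.37% of all genes fell, and with siRelB, where 0.782% did. CTSS, an endopeptidase best known from antigen presenting cells, was detected on neither siRelA array, at 59.4 with TNF and 55.2 without, and had 84.5 with siRelB and TNF and 93.6 with siRelB alone. It had 181.8 with siNC and TNF and 161.1, 328.5 and 181.6 with siNC alone. It was at least 3.94-fold lower with siRelA (adjusted p = 0.000667), and it fell by 1.59 ± 0.25 with siRelB (adjusted p = 0.0148). With siEZH2 CTSS differed by 0.13 ± 0.28 (adjusted p = 0.852). CTSW was at least 2.0-fold lower with siRelA (adjusted p = 0.00164) and fell by 0.85 ± 0.15 with siRelB (adjusted p = 0.0286). CTSB, CTSL and LGMN did not pass with siRelA or siRelB, at 0.49, 0.24 and 0.03 with siRelA and 0.27, 0.09 and 0.05 with siRelB. With the replicate block CTSB (0.47 ± 0.13, adjusted p = 0.0422) and CTSC (0.70, adjusted p = 0.0129) passed as higher with siRelA. TNF and the interaction called 0 of the 12 (0% of all genes), and the 3 brightest, CTSL, LGMN and CTSC, differed by -0.31, -0.04 and 0.11 with TNF.

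**Figure D4:**
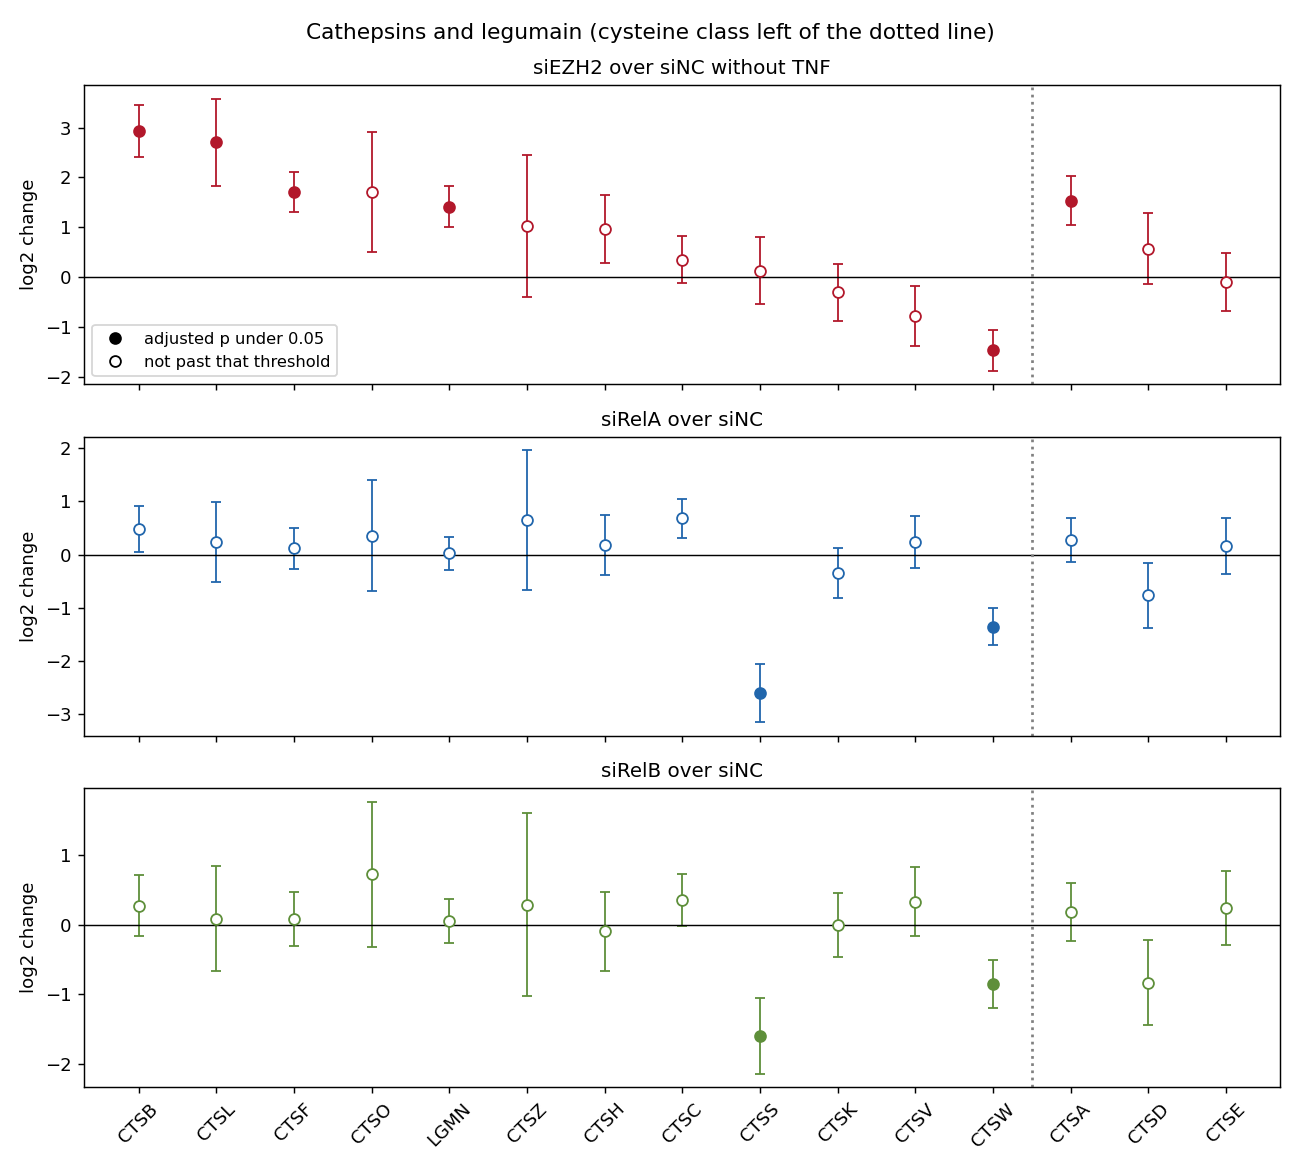
Log2 change of 15 tested cathepsins and legumain with siEZH2 (top), siRelA (middle) and siRelB (bottom) over siNC. Bars are 95% confidence intervals, and filled points have an adjusted p under 0.05. CTSB and CTSL lead the siEZH2 panel at 2.93 and 2.70, and CTSS falls furthest in the siRelA and siRelB panels.

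The rest of the cystatin superfamily was near background. Of 9 further genes, CST8, CST9, CST9L, CSTL1 and FETUB were detected on no array and CST11 on 1. The plasma proteins AHSG, HRG and KNG1 passed the detection filter and none passed the test, with changes of -0.15 to 0.24 with siEZH2. The genes whose normalized values followed CST1 most closely over the 12 arrays, outside the family, were SPSB1 (Pearson r 0.987), CDR2L (0.986), SLC25A23 (0.985), TMEM14B (0.983) and MAN2A2 (0.981). Among the 8 arrays without siEZH2 their correlation with CST1 was 0.89 to 0.96, although these 8 arrays were among the 12 that picked the genes. The gene most like CST3 was CTSB (0.994), that most like CST2 was COL1A1 (0.994), that most like CST4 was PPFIA4 (0.987), that most like CSTB was ATP6V0E1 (0.998) and that most like CST7 was SERGEF (0.944). Over the 8 arrays without siEZH2 the correlation of CST3 with CTSB was 0.82. These correlations carry no p, since the arrays share siRNAs and processing.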

How the data were processed

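Per the file headers, the authors deposited mean bead intensity per probe on a linear scale without normalization, beside a detection score that rises with signal and a number of beads. The submitters' processing notes name BeadStudio 3.2.7, with no genome build. A further deposited table holds the authors' log2 values. Over 4621 bright probes these equalled log2 signal minus each array's 75th percentile and a centre per probe, computed separately for 4 arrays (replicates 1 and 2 without TNF, the first processing set) and for the other 8. What remained had an SD of 5.44e-07 or less within a set and of 0.33 or more between sets. Scale, centring and direction were read from the values, whose column medians lay between -0.116 and 0.214. The tool that made them was not named in the sources used here.

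In limma 3.58.1 under R 4.3.3 the intensities underwent normexp background correction, with the detection p taken as 1 minus the score, an offset of 16, quantile normalization and log2. Probes with a detection p under 0.05 on at least 3 arrays were kept (13884 probes), with the brightest probe for each of 12275 genes. Of 22184 probe names, 17828 were current RefSeq symbols, 3305 were updated through a synonym, 868 did not match and 183 were ambiguous. limma (lmFit and eBayes, Benjamini-Hochberg over all genes) gave siEZH2 against siNC and its interaction with TNF from group means, and siRelA, siRelB and TNF from an additive fit. The interaction assumes that single arrays vary like the replicated groups. Where a gene was detected on no array of 1 group, its fold is a bound against the lowest detected signal. The replicate numbers, taken from the titles, were treated as pairing the siEZH2 and siNC arrays. Deviations from the group mean correlated at 0.757, 0.836 and 0.653 between arrays numbered 1, 2 and 3. Arrays with unlike numbers were not compared, and the deviations of 3 arrays from their own mean depend on each other. These correlations therefore do not test the pairing by number. The steps were run on simulated data with independent noise on each array, which does not cover arrays that deviate together. Alternatives changed background, scaling, offset, filter, probe choice, source table, arrays and the block. All members and gene lists, and the genes named from them (those past the threshold, otherwise the 3 brightest, and the 5 most like each member), were chosen with earlier results of these data known. The number of arrays limits the precision.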

Additional observations from a re-analysis of the deposited data

How the results depend on the processing

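The CST1 log2 change with siEZH2 was 5.57 and lay between 5.11 and 5.60 under the settings other than leaving out 1 array, 5.57 with the replicate block, and between 4.90 and 6.26 when 1 array was left out. It was never on the other side of 0, and no result past the threshold reversed. Some estimates not past it changed sign, such as CST6 with siEZH2, at 0.18 and at -0.05 in the second processing set alone. With the replicate block 3 cystatins passed with siRelA and 2 with siRelB, against 0 without it. The second processing set alone gave 3 with siRelA and 3 with siRelB, where 2143 and 1927 of all 12275 genes passed. Leaving out both replicate 2 arrays, an alternative chosen after seeing the data, gave 1 with siRelA and 3 with siRelB. There 1519 and 1347 of all genes passed, and the 3 with siRelB included CST2 at -0.59 (limma adjusted p = 0.0190). Of the 12 cysteine cathepsins and legumain, 5 passed with siEZH2, and 9 did with the block, 10 in the second processing set, 0 in the first and 10 without both replicate 2 arrays. Leaving out 1 array gave 5 to 6. With siRelA, 2 of the 12 passed, and 1 under a strict detection filter (detection p under 0.01 on at least 6 arrays), 0 with the authors' processed values, 4 with the block and 1 in a fit of only the siRNAs compared. With siRelB, 2 passed, and 1 without background correction, 1 under the strict filter, 0 with the authors' processed values, 1 with these values and a set term, 0 in a fit of only the siRNAs compared, and 1 to 2 when 1 array was left out, 1 without siEZH2 replicate 1 or siNC replicate 1. With the authors' processed values the log2 change of CTSS was -1.33 with siRelA (adjusted p = 0.148) and -0.70 with siRelB (adjusted p = 0.563). Over all genes, siEZH2 called 1817, and 5348 with the block, 6272 in the second set, 0 in the first, 3802 without both replicate 2 arrays, 950 with the authors' processed values and 611 to 2168 when 1 array was left out. siRelA called 245 and 1811 with the block, and siRelB 142 and 1569. The block changed no call with TNF or in the interaction. The cause of these changes was not tested. Among the values of single genes and the counts over all genes under each alternative, 1980 kept their side of the threshold and, where not past it, moved by less than 1 SD (counts by at most 1.5 times), 56 newly passed, 23 no longer passed, and 73 were not past the threshold or were counts and moved further.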
